A study of Mus musculus with 20 samples.

Results

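Transcripts of the transforming growth factor beta (TGF-beta) ligands Tgfb1, Tgfb2 and Tgfb3, of their receptors Tgfbr1, Tgfbr2 and Tgfbr3, and of the latent TGF-beta binding proteins Ltbp1, Ltbp2, Ltbp3 and Ltbp4 were read in mouse liver. These 10 genes were chosen by symbol from the 38924 genes of the table. RNA came from the livers of male mice after 12 weeks on control chow or on CDAHFD, a high fat chow that lacks choline and is built on defined amino acids, used to produce non-alcoholic steatohepatitis with fibrosis. The groups on control diet were wild type mice (NDWT) and TSP-1 knockout mice (NDKO). Those on CDAHFD were wild type mice (HFWT) and TSP-1 knockout mice (HFKO). Each of these groups held 5 mice, and the sample labels gave the strain as C57/BL6 in every group. Mice were bought at 5 weeks of age and kept for 1 week before the diet began. TSP-1 (thrombospondin-1, encoded by Thbs1) was absent by design from the whole animal, and the knockout and wild type mice were bought as separate lines, so that litter and line cannot be told apart from genotype.

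TGF-beta is secreted in a latent form, in which the mature dimer is held by its own propeptide, and the propeptide is in most cells bound to a latent binding protein that anchors the complex in the matrix. TSP-1, integrins and proteases release the active ligand from this complex. Active ligand binds the type II receptor, which recruits and phosphorylates the type I receptor, and Smad proteins then carry the signal to the nucleus. In the liver this pathway is known for its action on hepatic stellate cells, which turn into collagen-producing myofibroblasts during fibrosis. The comparison of genotypes bears on whether loss of an activator goes with altered transcripts of the ligands it acts on, and the comparison of diets on how the pathway's own genes are transcribed in a fibrotic liver.

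All 10 genes rose on CDAHFD in wild type mice and in mice labelled TSP-1 null, 8 of them under every scaling tried and Tgfbr3 and Ltbp4 not, and none passed the test between the genotype labels on either diet. The fold changes on the diet differed widely between members of the same class. Ltbp2 rose by a log2 fold change (log2FC) of 4.39 in wild type mice, whereas Ltbp4, the most abundant of the 10 on control diet, rose by 0.73. Values are fragments per kilobase of gene, scaled to the assigned fragments of each library (FPKM), which are per length and can be compared between genes, and group values are means ± SD over 5 mice. DEGs were called by limma on log2(FPKM + 0.1), at a two-sided false discovery rate (FDR) under 0.05 over the 14524 genes tested and an absolute log2FC above 0.58. RNA was taken from whole tissue, so that more cells of a type and more RNA per cell cannot be told apart.

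Libraries held 15641544 to 23276323 assigned fragments, and 3 fragments on a gene of 1 kb stood at 0.129 to 0.192 FPKM. The FPKM of Thbs1, the targeted gene, was not called lower under the TSP-1 null label on either diet. The NDWT libraries held 0.170, 0.326, 0.268, 0.058 and 0.165 FPKM of Thbs1 and the NDKO libraries 1.00, 1.5, 0.986, 1.90 and 1.13, so that every library labelled TSP-1 null lay above every wild type library on control diet (log2FC 2.28, FDR 1.02e-05). On CDAHFD the ranges of Thbs1 overlapped, with 3.46 to 6.10 FPKM in HFWT and 3.05 to 4.40 in HFKO (FDR 0.408). The table has no values per exon, so RNA from the targeted allele cannot be distinguished here from normal RNA, and the genotypes below are those of the labels. Hepatocyte markers were by far the most abundant of the markers read, with summed levels of 27630 FPKM or more in every library (Alb, Ttr, Apoa1, Cps1 and Cyp2e1).

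Among the ligands Tgfb1 was the most abundant in every library. It encodes the isoform most studied in fibrosis (ENSMUSG00000002603.9, GRCm38 chromosome 7, 25687002 to 25705077, plus strand). Tgfb1 stood at 4.79, 4.85, 4.83, 3.65 and 4.04 FPKM in NDWT and 6.04, 4.56, 5.60, 3.89 and 4.99 in NDKO on control diet, and 19.4, 18.8, 18.2, 18.6 and 14.5 in HFWT and 16.0, 16.5, 19.3, 14.4 and 25.4 in HFKO on CDAHFD. The lowest CDAHFD library lay above the highest control library by more than the whole range of the control libraries, while the genotype labels overlapped on both diets. The log2FC on CDAHFD was 1.99 (SE 0.14, FDR 3.13e-10) in wild type mice and 1.84 (SE 0.14, FDR 1.17e-09) in mice labelled TSP-1 null.

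Tgfb2 and Tgfb3, the other ligands of the family, were scarce on control diet and had a higher log2FC than Tgfb1 on log2(FPKM + 0.1). Tgfb2 (ENSMUSG00000039239.9, chromosome 1, 186623186 to 186705992, minus strand) stood at 0.091, 0.101, 0.083, 0.062 and 0.149 FPKM in NDWT, from 5 to 14 fragments a library, and at 0.113, 0.075, 0.136, 0.119 and 0.084 in NDKO, from 8 to 12 fragments. On CDAHFD it reached 2.22, 1.76, 1.05, 1.27 and 1.42 FPKM in HFWT and 0.911, 1.01, 1.26, 1.04 and 1.14 in HFKO. No control library came near any CDAHFD library, and the 4 highest values of all were in HFWT. The log2FC was 3.03 (SE 0.19, FDR 5.27e-11) in wild type mice and 2.52 (SE 0.19, FDR 8.31e-10) in mice labelled TSP-1 null. At these levels the pseudocount weighs on the fold change, and with a pseudocount of 1 the log2FC of Tgfb2 was 1.20 in wild type mice and 0.91 in mice labelled TSP-1 null, both still called, and that of Tgfb1 was 1.80 and 1.67, so that the order of these ligands turned. It also turned under quantile normalization in mice labelled TSP-1 null, with 1.30 for Tgfb2 and 1.35 for Tgfb1.

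Tgfb3 (ENSMUSG00000021253.6, chromosome 12, 86056744 to 86079041, minus strand) stood at 0.349 ± 0.0621 FPKM in NDWT and 0.387 ± 0.196 in NDKO on control diet, and 3.60 ± 1.09 in HFWT and 3.43 ± 0.578 in HFKO on CDAHFD. The lowest CDAHFD library was at 2.55 FPKM and the highest control library at 0.702, and the spread in NDKO came from libraries at 0.186 and 0.702. Its log2FC was 3.01 (FDR 6.74e-10) in wild type mice and 2.93 (FDR 1.19e-09) in mice labelled TSP-1 null. With a pseudocount of 1 the log2FC of Tgfb3 was 1.74 and 1.68, beside the 1.80 and 1.67 of Tgfb1. Tgfb3 shares 5150 bases of its span with Ttll5 on the opposite strand, which averaged 0.697 FPKM, and whether strand was used in counting is not given in the sources used here, so some of its low control level may be uncertain.

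**Figure D1:**
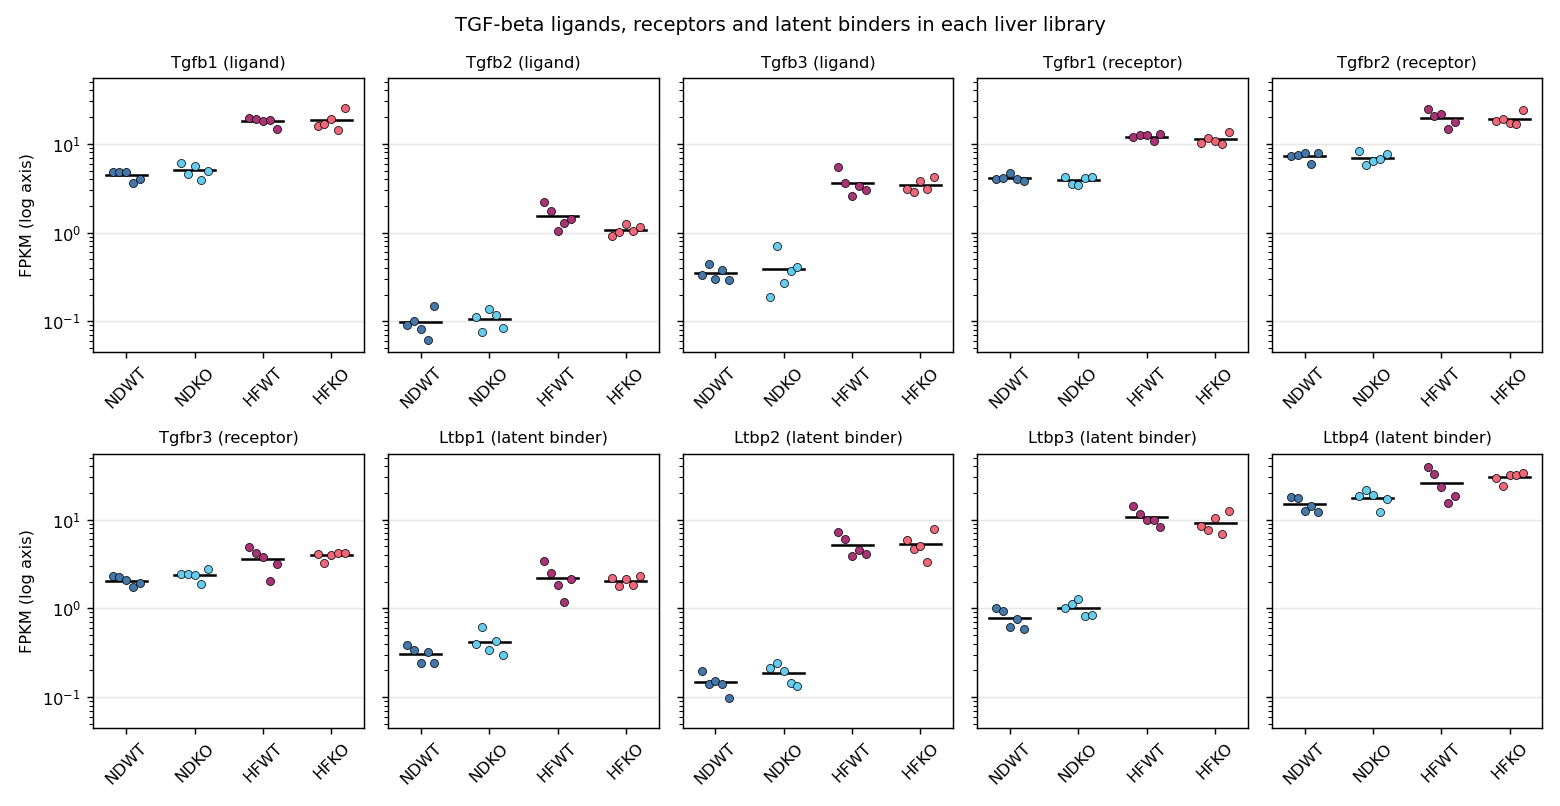
FPKM on a log axis of the 10 genes in each of the 20 liver libraries, 1 panel per gene, with 5 points per group (NDWT, NDKO, HFWT, HFKO) and a bar at the group mean. The CDAHFD libraries stand above the control libraries without overlap in 8 of 10 genes in wild type mice and in 10 of 10 in mice labelled TSP-1 null, and the genotype labels overlap in every panel.

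The windows before and just after the start of Tgfb1 and Tgfb2 are shown because these ligands are the most and the least abundant of the class and differ in their core elements. Each runs from 250 bases before to 50 bases after the RefSeq start on GRCm38.p6, and capitals mark matches on either strand. The letters searched were GGGCGG for Sp1, TGANTCA for AP-1, CAGACA for Smad and TATAAA for a TATA element. Tgfb1 lies at chr7:25686752-25687051 on the plus strand and Tgfb2 at chr1:186705940-186706239 on the minus strand.
Tgfb1: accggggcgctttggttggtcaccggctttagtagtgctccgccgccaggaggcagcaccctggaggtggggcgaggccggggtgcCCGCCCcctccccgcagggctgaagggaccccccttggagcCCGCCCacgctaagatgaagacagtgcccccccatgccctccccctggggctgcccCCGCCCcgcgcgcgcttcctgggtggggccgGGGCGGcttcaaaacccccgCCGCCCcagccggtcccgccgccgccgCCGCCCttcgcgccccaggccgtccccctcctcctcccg
Tgfb2: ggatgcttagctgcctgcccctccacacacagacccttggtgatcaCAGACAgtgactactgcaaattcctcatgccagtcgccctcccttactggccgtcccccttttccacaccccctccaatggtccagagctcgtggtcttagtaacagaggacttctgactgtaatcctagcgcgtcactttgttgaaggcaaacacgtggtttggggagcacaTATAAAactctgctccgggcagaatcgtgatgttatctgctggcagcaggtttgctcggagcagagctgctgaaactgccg
The Tgfb1 window held 6 Sp1 matches and no TATA match, and the Tgfb2 window 1 TATA match, 1 Smad match and no Sp1 match. Of all 32851 windows of this length, 35.7% held a Sp1 match, 13.6% a TATA match and 21.0% a Smad match. A match describes letters only and is not a site shown to be bound.

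The receptors had a lower log2FC than the ligands on log2(FPKM + 0.1), although with a pseudocount of 1 Tgfbr1 (1.35 and 1.32) and Tgfbr2 (1.31 and 1.33) stood above Tgfb2. Tgfbr1, the type I receptor kinase (ENSMUSG00000007613.9, chromosome 4, 47353222 to 47414931, plus strand), stood at 4.00, 4.14, 4.64, 3.99 and 3.84 FPKM in NDWT and 4.20, 3.50, 3.45, 4.07 and 4.19 in NDKO on control diet, and 11.8, 12.5, 12.5, 10.7 and 12.9 in HFWT and 10.2, 11.6, 10.8, 9.93 and 13.7 in HFKO on CDAHFD. The diets were far apart in both genotypes and its standard error was the smallest of the 10 genes. Its log2FC of 1.53 (SE 0.09, FDR 2.07e-11) in wild type mice and 1.51 (SE 0.09, FDR 3.51e-11) in mice labelled TSP-1 null differed by less than its standard error.

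Tgfbr2, the type II receptor that binds ligand first (ENSMUSG00000032440.6, chromosome 9, 116087698 to 116175363, minus strand), was the most abundant receptor in every library. It stood at 7.31 ± 0.793 FPKM in NDWT and 6.98 ± 1.03 in NDKO on control diet, and 19.8 ± 3.78 in HFWT and 19.1 ± 3.07 in HFKO on CDAHFD, and its lowest CDAHFD library, at 14.8, lay above its highest control library, at 8.40. Its log2FC was 1.41 (FDR 1.65e-08) in wild type mice and 1.44 (FDR 1.44e-08) in mice labelled TSP-1 null. The kinase receptors thus kept a like proportion, with 0.569 ± 0.0686 FPKM of Tgfbr1 per FPKM of Tgfbr2 in NDWT and 0.561 ± 0.0486 in NDKO on control diet, and 0.627 ± 0.107 in HFWT and 0.590 ± 0.0258 in HFKO on CDAHFD, and all 4 ranges of this proportion overlapped.

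Tgfbr3, also called betaglycan, is a co-receptor without kinase activity that presents ligand, Tgfb2 above all, to the type II receptor (ENSMUSG00000029287.8, chromosome 5, 107106570 to 107289629, minus strand). It stood at 2.29, 2.24, 2.08, 1.75 and 1.92 FPKM in NDWT and 2.42, 2.44, 2.38, 1.90 and 2.74 in NDKO on control diet, and 4.89, 4.21, 3.83, 2.04 and 3.12 in HFWT and 4.06, 3.27, 3.94, 4.21 and 4.23 in HFKO on CDAHFD. In wild type mice the diets overlapped, since HFWT library 4 fell inside the control range, and in mice labelled TSP-1 null they did not. Its log2FC was 0.74 (SE 0.17, FDR 0.00057) in wild type mice and 0.71 (SE 0.17, FDR 0.000818) in mice labelled TSP-1 null. These were the lowest log2FC values beside those of Ltbp4, and they depended on how libraries were scaled, as given below. With a pseudocount of 1 they were 0.56 and 0.55, under the fold change threshold in both genotypes. As a share of summed receptor FPKM, Tgfbr3 made up 15.2% ± 1.21 in NDWT and 18.1% ± 2.40 in NDKO on control diet, and 9.99% ± 1.76 in HFWT and 11.6% ± 1.74 in HFKO on CDAHFD.

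The diet effects of the latent binders ranged widely, from a log2FC of 4.39 in Ltbp2 to 0.73 in Ltbp4 in wild type mice and from 4.21 to 0.79 in mice labelled TSP-1 null. Ltbp2 binds to fibrillin microfibrils and, unlike the others, is not known to bind latent TGF-beta (ENSMUSG00000002020.9, chromosome 12, 84783212 to 84876532, minus strand). It stood at 0.199, 0.139, 0.151, 0.142 and 0.098 FPKM in NDWT and 0.213, 0.242, 0.196, 0.145 and 0.133 in NDKO on control diet, and 7.26, 5.98, 3.91, 4.58 and 4.11 in HFWT and 5.93, 4.62, 5.09, 3.29 and 7.76 in HFKO on CDAHFD. Control libraries gave 16 to 45 fragments and CDAHFD libraries 533 to 1210, so that the groups stood far apart. The ratio of mean FPKM was 35.4 in wild type mice (log2FC 4.39, SE 0.20, FDR 1.37e-12) and 28.7 in mice labelled TSP-1 null (log2FC 4.21, SE 0.20, FDR 3.68e-12). With a pseudocount of 1 the log2FC of Ltbp2 was 2.40 and 2.38, both called.

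Ltbp3, which binds latent TGF-beta (ENSMUSG00000024940.10, chromosome 19, 5740904 to 5758532, plus strand), followed. Its FPKM was 1.01, 0.924, 0.617, 0.764 and 0.589 in NDWT and 1.01, 1.12, 1.27, 0.820 and 0.848 in NDKO on control diet, and 14.2, 11.5, 9.81, 9.92 and 8.16 in HFWT and 8.51, 7.64, 10.3, 6.93 and 12.4 in HFKO on CDAHFD. The diets did not overlap, and between the genotype labels the means were higher in NDKO on control diet and in HFWT on CDAHFD, with overlap in both cases. The log2FC on the diet was 3.62 (SE 0.18, FDR 2.77e-12) in wild type mice and 3.04 (SE 0.18, FDR 3.20e-11) in mice labelled TSP-1 null.

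Ltbp1, the founding member of the family (ENSMUSG00000001870.9, chromosome 17, 75005568 to 75392512, plus strand), stood at 0.306 ± 0.0620 FPKM in NDWT and 0.412 ± 0.121 in NDKO on control diet, and 2.22 ± 0.836 in HFWT and 2.04 ± 0.224 in HFKO on CDAHFD. Its highest control library was at 0.609 FPKM and its lowest CDAHFD library, HFWT library 4, at 1.19. Its log2FC was 2.45 (SE 0.21, FDR 5.02e-09) in wild type mice and 2.09 (SE 0.21, FDR 5.08e-08) in mice labelled TSP-1 null.

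Ltbp4, which binds latent TGF-beta1 weakly and takes part in elastic fibre assembly (ENSMUSG00000040488.10, chromosome 7, 27305136 to 27337692, minus strand), was the most abundant of the 4 binders in every library. It stood at 18.0, 17.3, 12.5, 14.2 and 12.2 FPKM in NDWT and 18.5, 21.3, 18.8, 12.1 and 16.9 in NDKO on control diet, and 39.5, 32.3, 23.3, 15.4 and 18.4 in HFWT and 29.2, 23.8, 31.9, 31.9 and 33.8 in HFKO on CDAHFD. In wild type mice HFWT library 4 lay within the control range, and its values in HFWT were the most spread of the 4 groups. The log2FC was 0.73 (SE 0.21, FDR 0.00427) in wild type mice and 0.79 (SE 0.21, FDR 0.00225) in mice labelled TSP-1 null. Without HFWT library 1 the wild type value was 0.55 (FDR 0.016), under the fold change threshold.

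The windows of Ltbp2 and Ltbp3 are shown because these genes had the highest log2FC of the 10 in wild type mice, with the same bounds and capitals as for the ligands. Ltbp2 lies at chr12:84876442-84876741 on the minus strand and Ltbp3 at chr19:5740650-5740949 on the plus strand, and in Ltbp3 the AP-1 and Smad matches share letters and are printed as 1 run of capitals.
Ltbp2: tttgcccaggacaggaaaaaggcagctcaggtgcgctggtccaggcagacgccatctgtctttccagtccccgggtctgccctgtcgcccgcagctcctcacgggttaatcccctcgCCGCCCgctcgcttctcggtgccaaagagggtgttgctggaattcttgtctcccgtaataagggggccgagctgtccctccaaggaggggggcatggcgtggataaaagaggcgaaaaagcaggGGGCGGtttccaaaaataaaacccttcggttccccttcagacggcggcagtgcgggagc
Ltbp3: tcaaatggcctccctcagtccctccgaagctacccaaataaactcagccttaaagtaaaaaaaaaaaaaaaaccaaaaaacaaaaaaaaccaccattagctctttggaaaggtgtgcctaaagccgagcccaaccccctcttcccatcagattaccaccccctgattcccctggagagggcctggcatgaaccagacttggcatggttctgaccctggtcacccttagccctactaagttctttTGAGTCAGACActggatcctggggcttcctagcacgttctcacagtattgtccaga
The Ltbp2 window held 2 Sp1 matches and none of the other letters. Ltbp3 was the only 1 of the 8 members with a window in the table that held an AP-1 match, which 7.81% of all windows held. Of these 8, 4 held a Sp1 match (Tgfb1, Tgfbr1, Ltbp2 and Ltbp4) and 2 a Smad match (Tgfb2 and Ltbp3). Only the window nearest to the deposited gene start was read, although 3 are listed for Ltbp4 and 2 each for Tgfbr1 and Ltbp1.

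Counted together, 10 of 10 genes were called higher on CDAHFD in wild type mice, where 44.1% of the 14524 genes tested were called higher. In mice labelled TSP-1 null 10 of 10 were called higher, where 41.9% of all genes were. The median log2FC over the 10 genes was 2.22 in wild type mice, beside 0.53 over all genes tested, and 1.96 beside 0.50 in mice labelled TSP-1 null. In wild type mice 8 of 10 had groups that did not overlap, beside 56.2% of all genes, and in mice labelled TSP-1 null 10 of 10, beside 57.8%. All 10 passed the filter of FPKM above 0.5 in at least 5 libraries, but Tgfb2, Tgfb3, Ltbp1 and Ltbp2 passed only through CDAHFD libraries, so that being tested already required a high value there. The 6 that passed through control libraries were called higher in each genotype, Tgfbr3 and Ltbp4 only on FPKM as deposited. The members were chosen with earlier results of these data known, so these counts are a description. Among the 14524 genes, Ltbp2, which passed only through CDAHFD libraries, stood at the 99.5th percentile of log2FC in wild type mice, Ltbp3 at the 98.7th and Ltbp4 at the 61.6th.

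**Figure D2:**
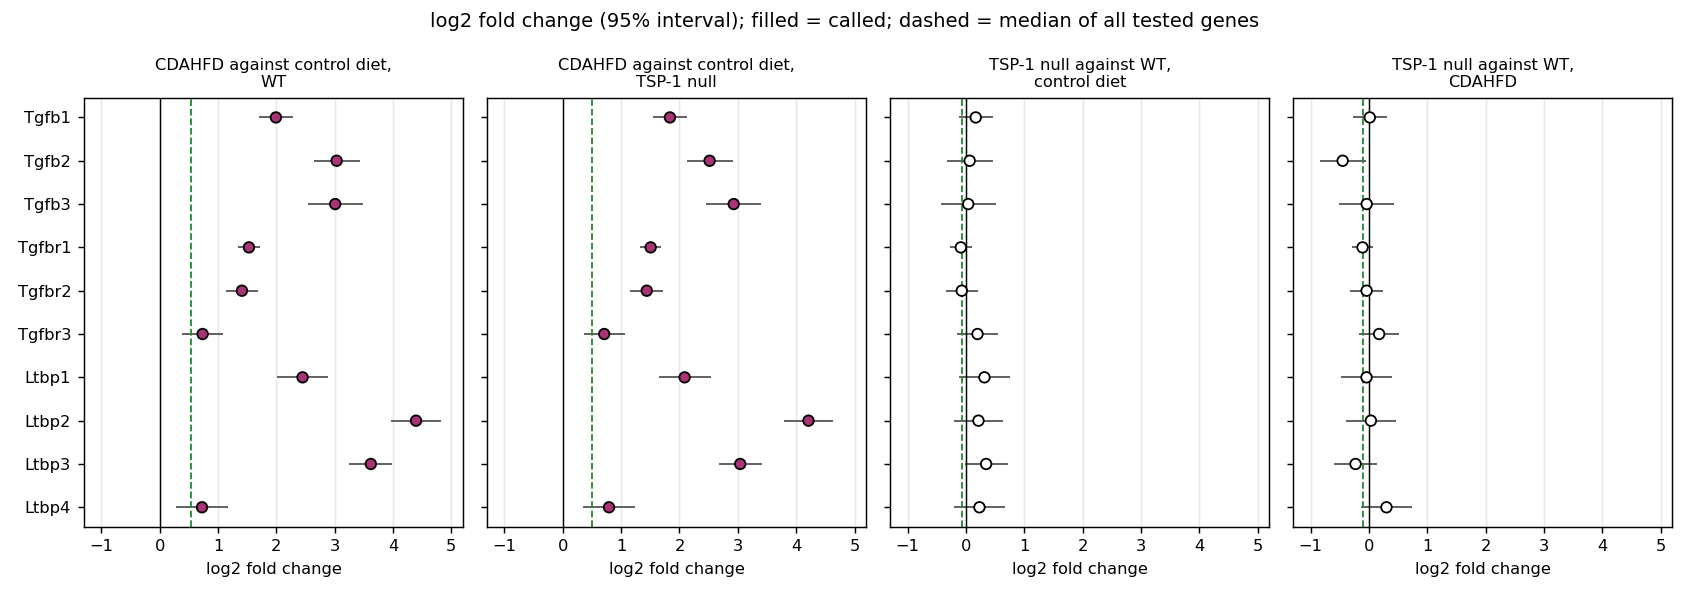
log2FC of the 10 genes in the 4 comparisons, as points with 95% intervals from the limma fit. Filled points were called at FDR under 0.05 and absolute log2FC above 0.58, open points were not, and the dashed line is the median of all 14524 genes tested, at 0.53 and 0.50 in the diet comparisons and -0.07 and -0.10 in the genotype comparisons.

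The FPKM of most genes was higher on CDAHFD, as the median of all genes shows, and scalings that set this median near 0 lowered the log2FC of every member. Median of ratios scaling put the all-gene median at -0.01 in both genotypes, and quantile normalization at -0.09. Under both scalings 8 of 10 genes were still called higher in each genotype, beside 22.7% of all genes under median of ratios scaling in wild type mice and 22.2% in mice labelled TSP-1 null, and beside 17.3% and 16.7% under quantile normalization. The genes that lost the call were Tgfbr3 and Ltbp4, both among the 6 that passed the filter through control libraries. Tgfb2, Tgfb3, Ltbp1 and Ltbp2, which kept it, passed only through CDAHFD libraries, so that being tested already required a high value there. The log2FC of Tgfbr3 in wild type mice was 0.19 (FDR 0.269) under median of ratios scaling and -0.05 (FDR 0.795) under quantile normalization. That of Ltbp4 was 0.17 (FDR 0.468) and 0.40 (FDR 0.0891). In mice labelled TSP-1 null the values were 0.19 and 0.01 for Tgfbr3 and 0.26 and 0.48 for Ltbp4, the last with an FDR of 0.0452 but under the fold change threshold. With Tgfbr1 at 0.98 and Ltbp2 at 3.93 under median of ratios scaling in wild type mice, the ligands, the kinase receptors and the other 3 binders still rose.

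**Figure D3:**
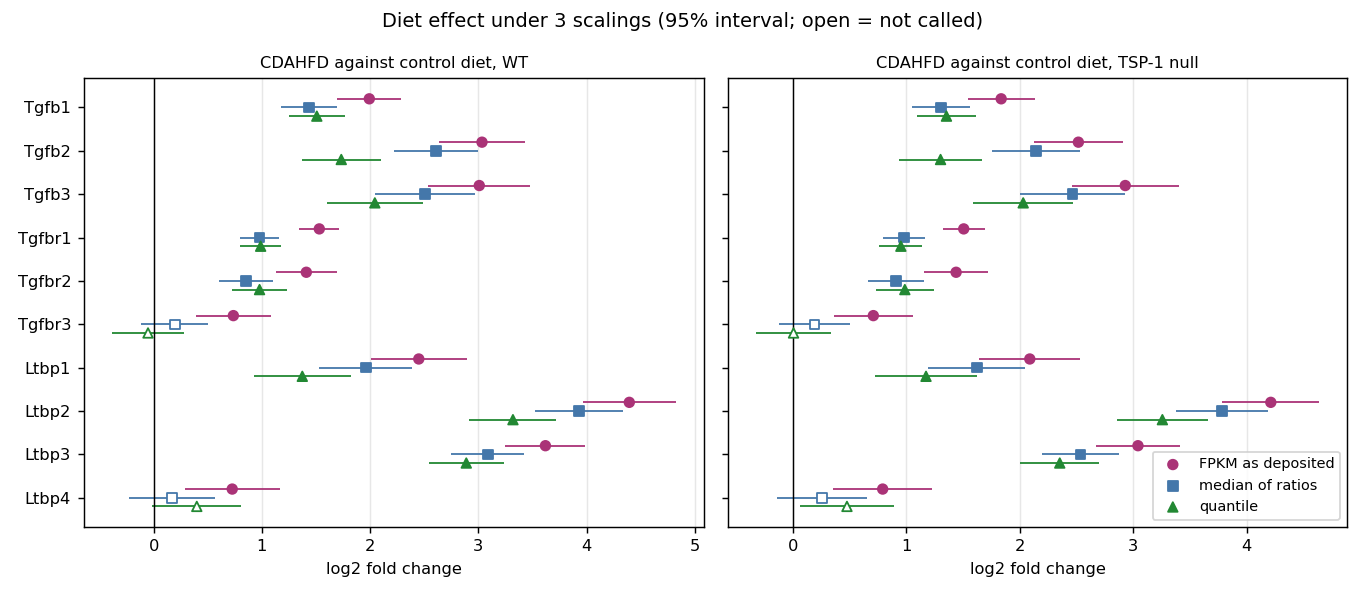
log2FC on CDAHFD of the 10 genes with 95% intervals, in wild type mice (left) and in mice labelled TSP-1 null (right), from FPKM as deposited (circles), median of ratios scaling (squares) and quantile normalization (triangles). Open symbols were not called, which are those of Tgfbr3 and Ltbp4 under the other scalings.

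Set against Gapdh, the reference gene of the study's PCR, within each library, Tgfb1 did not depend on a factor common to all genes of a library. It stood at 10.1 ± 0.841 FPKM per 1000 Gapdh FPKM in NDWT and 11.5 ± 1.68 in NDKO on control diet, and 44.2 ± 4.30 in HFWT and 41.7 ± 9.80 in HFKO on CDAHFD. The log2 difference between the diets was 2.13 in wild type mice and 1.83 in mice labelled TSP-1 null, each higher in 5 of 5 libraries (exact two-sided permutation p = 0.00794, which is the lowest that 252 arrangements allow, and 0.0159 after Benjamini-Hochberg adjustment over 4 comparisons). Between the genotype labels the ratio differed by 0.19 on control diet (exact p = 0.151, adjusted 0.201) and by -0.11 on CDAHFD (exact p = 0.548, adjusted 0.548), with overlap on both diets. The study's PCR reported a small but significant decrease of Tgfb1 in TSP-1 null mice on CDAHFD. Those PCR values were relative to the same genotype on control diet, and the like difference of diet effects was not tested for this ratio. Gapdh itself was at 439 ± 47.1, 434 ± 30.3, 409 ± 64.0 and 441 ± 31.3 FPKM in NDWT, NDKO, HFWT and HFKO. Set against Actb instead, which itself rose by a log2FC of 1.42 on CDAHFD in wild type mice and 1.71 in mice labelled TSP-1 null, the diet difference of Tgfb1 was 0.60 in wild type mice (exact p = 0.00794) and 0.15 in mice labelled TSP-1 null (exact p = 0.341). Between the genotype labels it was then 0.71 on control diet (exact p = 0.00794) and 0.26 on CDAHFD (exact p = 0.0159), so that this comparison depended on the reference gene.

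Unequal rises changed the make-up of each class. Tgfb1 made up 90.8% ± 1.47 of summed ligand FPKM in NDWT and 90.8% ± 3.83 in NDKO, while on CDAHFD it made up 77.9% ± 4.35 in HFWT and 80.1% ± 1.77 in HFKO, as the shares of Tgfb2 and Tgfb3 grew. Every CDAHFD library had a lower Tgfb1 share than every control library, the closest being 83.4% and 85.4%. Of the CDAHFD ligand FPKM, Tgfb3 gave 15.5% ± 3.03 in HFWT and 15.1% ± 1.15 in HFKO, and Tgfb2 6.66% ± 1.43 and 4.80% ± 0.723.

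Among the binders the shift was wider. Ltbp4 made up 92.4% ± 0.427 of summed binder FPKM in NDWT and 91.5% ± 1.20 in NDKO on control diet, and 57.8% ± 5.11 in HFWT and 64.8% ± 4.67 in HFKO on CDAHFD. Ltbp3 went from 4.82% ± 0.289 in NDWT and 5.35% ± 0.715 in NDKO to 25.2% ± 4.04 in HFWT and 19.5% ± 2.42 in HFKO, and Ltbp2 from 0.909% ± 0.167 and 0.972% ± 0.143 to 12.0% ± 1.76 and 11.4% ± 2.51. The Ltbp3 share was 22.0, 22.0, 25.2, 31.9 and 24.9% in HFWT and 18.6, 20.2, 20.9, 15.8 and 22.0% in HFKO, so that the groups met at their edges. Summed over all 4, binder FPKM per ligand FPKM was 3.30 ± 0.523 in NDWT and 3.47 ± 0.516 in NDKO on control diet, and 1.88 ± 0.404 in HFWT and 2.07 ± 0.249 in HFKO on CDAHFD, and the highest CDAHFD library, at 2.38, lay under the lowest control library, at 2.59. With Ltbp2 left out, as the member not known to bind latent TGF-beta, the same ratio was 3.28 ± 0.519, 3.44 ± 0.510, 1.66 ± 0.374 and 1.84 ± 0.258. These shares are of FPKM within a library, so that a factor common to all genes of the library leaves them as they are, and they were not tested.

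**Figure D4:**
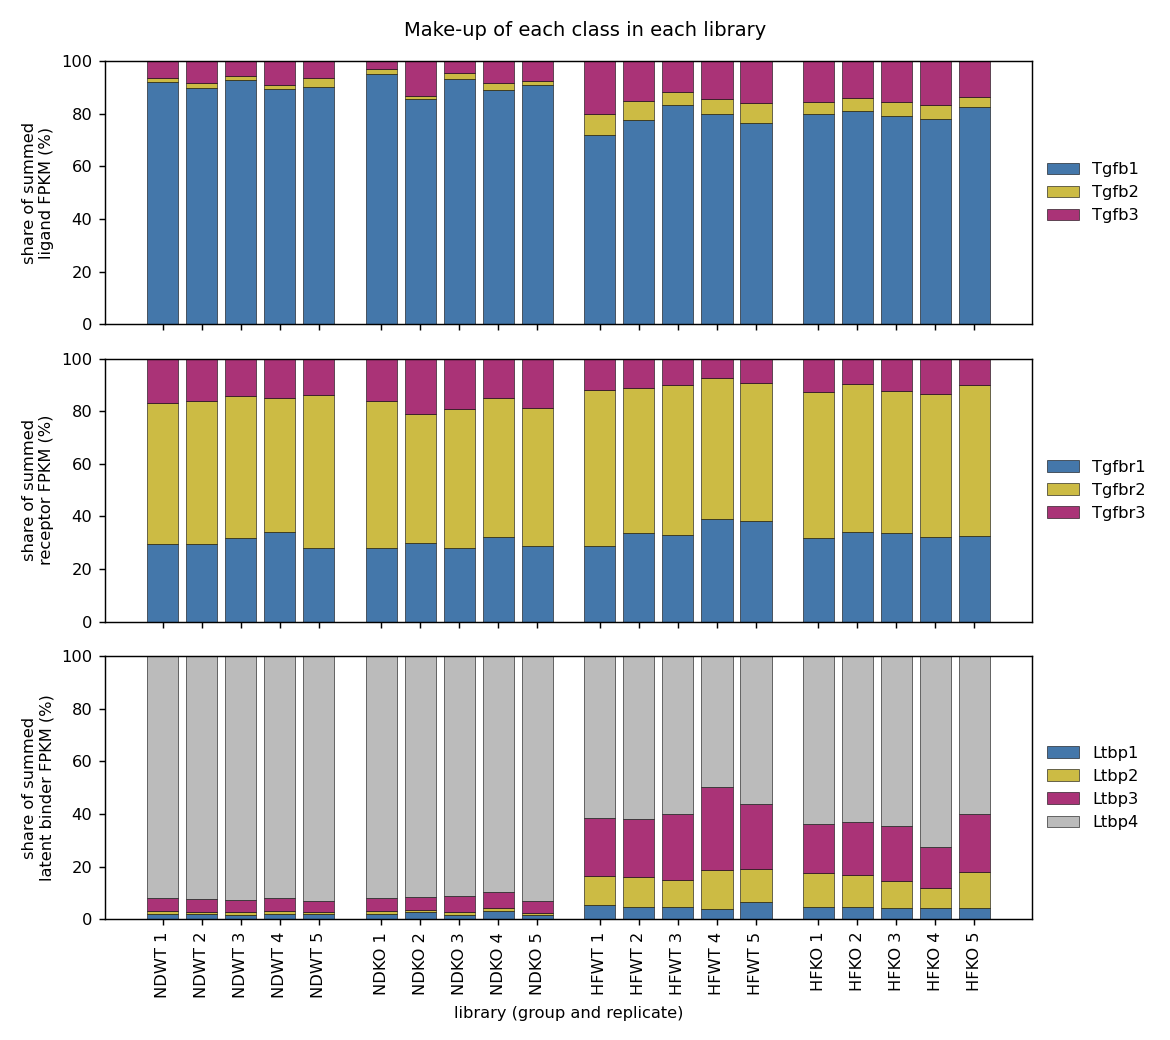
Share of each gene in the summed FPKM of its class in each of the 20 libraries, for the 3 ligands (top), the 3 receptors (middle) and the 4 latent binders (bottom), as stacked bars that add to 100%. Ltbp4 fills 89.7% or more of every control bar and 49.6 to 72.5% of the CDAHFD bars, while Tgfb1 falls from 85.4% or more to between 71.7 and 83.4%.

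Between the genotype labels 0 of 10 genes were called on control diet by limma, and 0 had an unadjusted p under 0.05, where 4.77% of all genes were called. Groups that did not overlap were found in 0 of 10, beside 9.03% of all genes. The log2FC of libraries labelled TSP-1 null against wild type ran from -0.09 (Tgfbr1) to 0.35 (Ltbp3, FDR 0.215). For Tgfb1 it was 0.17, with a 95% interval of -0.13 to 0.46, and for Ltbp4 0.23, with an interval of -0.21 to 0.67. The widest bounds over the 10 genes were -0.43 and 0.76. Thbs1 itself was higher under the TSP-1 null label here. Because RNA from the targeted allele cannot be distinguished from normal RNA, its level can neither bear out nor contradict the labels. The direction of any of these differences rests on the labels.

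On CDAHFD 0 of 10 genes were called between the labels, where 0.496% of all genes were, 0 of 10 had groups that did not overlap, beside 4.98% of all genes, and 1 of 10 had an unadjusted p under 0.05. That gene was Tgfb2, with a log2FC of -0.45 in libraries labelled TSP-1 null (95% interval -0.85 to -0.06, FDR 0.227 by limma). Its values overlapped, with 1.05 to 2.22 FPKM in HFWT and 0.911 to 1.26 in HFKO, and with HFWT library 1 and HFKO library 5 both left out the log2FC was -0.34 (FDR 0.399). Tgfb1 gave a log2FC of 0.01 (95% interval -0.28 to 0.31, FDR 0.976). For the remaining genes the log2FC ran from -0.23 (Ltbp3) to 0.30 (Ltbp4), with intervals that include 0. These intervals bound the differences and do not show that the genotypes were alike.

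The diet by genotype interaction, the genotype difference on CDAHFD less that on control diet, was called in 0 of 10 genes, beside 0.647% of all genes, and 1 of 10 had an unadjusted p under 0.05. This was Ltbp3, whose rise on the diet was smaller in mice labelled TSP-1 null by a log2FC of 0.58 in size (interaction -0.58, 95% interval -1.10 to -0.05, FDR 0.275 by limma). Tgfb2 came next at -0.52 (95% interval -1.07 to 0.04, FDR 0.375). For Tgfb1 the interaction was -0.16 (95% interval -0.57 to 0.26, FDR 0.778). Thbs1 itself gave an interaction of -2.67 (FDR 0.0023), since it rose by 4.03 in wild type mice and by 1.36 in mice labelled TSP-1 null.

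Libraries of a diet differed in step over the 10 genes. HFWT library 1 was the highest of its group in 9 of 10 genes and HFKO library 5 in 9 of 10, while HFWT library 4 and HFKO library 4 were each the lowest in 5. After group means were taken off log2(FPKM + 0.1), 42 of the 45 pairs of members correlated positively over the 20 libraries, with a median Pearson r of 0.40 (range -0.08 to 0.86), a description over libraries that share depth, scaling and cell make-up within each point. How often HFWT library 1 and HFKO library 5 were the highest over all genes was not counted, nor was the sign of other pairs. Neither pattern is thus shown to be particular to the 10 genes. Both high libraries also had the highest summed myofibroblast markers of their group, at 213.7 and 168.0 FPKM, the highest stellate cell markers, at 111.9 and 87.4, and the lowest hepatocyte markers. They were the highest as well in portal fibroblast and mesothelial markers, at 69.9 and 45.2, and in smooth muscle markers, at 1.01 and 1.00. HFKO library 5, but not HFWT library 1, was also the highest of its group in macrophage, endothelial and T and B cell markers. With both left out, 9 of 10 genes were called higher in wild type mice, Ltbp4 being lost at a log2FC of 0.55, and 10 of 10 in mice labelled TSP-1 null.

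By this measure each member had its own nearest genes among the 14524 tested. For Ltbp3 they were Rhob (r = 0.96), Ube2o and Dhx38, and for Tgfb1 Gmip (0.94), Unc93b1 (0.93) and Dnmt1 (0.92). Tgfbr1 stood nearest to Nin (0.92) and to Msr1 (0.85), a macrophage scavenger receptor gene, and Ltbp2 to Svep1 (0.92). Ltbp1 varied most like Mrc2 (0.87) and Eln (0.85), the gene of elastin, and Ltbp4 most like Mxra8 (0.90), Snai1 (0.90) and Slc9a3r2 (0.89). For Tgfbr3 the nearest were Adamts13 (0.92), Papln (0.92) and Ntn1 (0.92), for Tgfbr2 Ppm1h (0.87), for Tgfb3 Boc (0.81), and for Tgfb2 Bex1 (0.76), the lowest of these leading values. These are the highest of 14524 correlations over 20 libraries each and are given as a description. By Spearman rank correlation the 3 nearest genes of Ltbp3 stayed the same. None of the 3 stayed among the nearest for Tgfb2, Tgfb3, Tgfbr2, Ltbp2 and Ltbp4, and for the other members some did.

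Markers of several cell types were higher on the diet, and their part in the members' rise was not tested. Their counts are on FPKM as deposited, where 44.1% of all genes were called higher in wild type mice and 41.9% in mice labelled TSP-1 null. The median log2FC of myofibroblast markers was 4.46 and 4.33, beside 0.53 and 0.50 over all genes. Cholangiocyte markers had medians of 3.88 and 3.09, and macrophage markers 2.17 and 2.20. Portal fibroblast and mesothelial markers had 2.02 and 1.59, and T and B cell markers 1.45 and 1.31. Stellate cell markers had medians of 1.08 and 0.88, and platelet markers 0.80 and 0.42. For the 1 smooth muscle marker tested the values were 0.70 and 0.76, for endothelial markers 0.02 and 0.32, and for hepatocyte markers -0.24 and -0.46. Myofibroblast markers (Acta2, Col1a1, Col3a1, Timp1 and Lox) were called higher in 5 of 5, their summed level going from 3.96 to 6.44 FPKM in NDWT to 100.6 to 213.7 in HFWT, and from 3.14 to 4.86 in NDKO to 79.98 to 168.0 in HFKO. Stellate cell markers were higher in 6 of 6 in wild type mice and in 5 of 6 in mice labelled TSP-1 null, with summed levels of 35.3 to 47.7 in NDWT and 53.6 to 111.9 in HFWT. Macrophage markers rose in 5 of 6 in each genotype, and Clec4f, a Kupffer cell gene, fell, so that Lyz2 went from 44.6 ± 5.32 FPKM in NDWT to 869.5 ± 99.3 in HFWT while Clec4f went from 67.5 ± 7.43 to 29.7 ± 8.79. Cholangiocyte markers and T and B cell markers were higher in 5 of 5 in each genotype, and portal fibroblast and mesothelial markers in 5 of 5 in wild type mice and 3 of 5 in mice labelled TSP-1 null. Endothelial markers moved less, with 1 of 6 and 2 of 6 called higher, platelet markers with 2 of 3 and 1 of 3, and smooth muscle markers with 1 of the 1 tested in each. Hepatocyte markers were called lower in 0 of 5 in wild type mice and in 2 of 5 in mice labelled TSP-1 null, where 671 and 581 of the 14524 genes were called lower. Between the genotype labels 1 of 5 hepatocyte and 1 of 6 macrophage markers were called higher on control diet, beside 1.74% of all genes. There 1 of 5 myofibroblast markers (Acta2) was called lower, beside 3.03% of all genes. On CDAHFD no marker was called between the labels, where 0.496% of all genes were. No marker was at 0 in every library.

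Of 56 other genes of the pathway, 53 were tested, and 40 were called higher and 0 lower on CDAHFD in each genotype, beside 44.1% of all genes called higher in wild type mice and 41.9% in mice labelled TSP-1 null. Under median of ratios scaling 31 were called higher and 4 lower in wild type mice and 32 and 2 in mice labelled TSP-1 null, and under quantile normalization 30 and 3, and 27 and 2. Itgb6, Cd109 and Aspn were not tested. How many of the 53 passed the filter only through CDAHFD libraries was not counted. The median log2FC of the 53 was 1.39 in wild type mice and 1.31 in mice labelled TSP-1 null, beside 2.22 and 1.96 over the ligands, receptors and binders and 0.53 and 0.50 over all genes. All 8 TGF-beta response genes were higher in each genotype, among them Col1a2 (log2FC 4.20 and 4.12), Col3a1 (4.46 and 4.33), Col1a1 (5.26 and 5.54), which encode fibrillar collagens, and Timp1 (5.18 and 5.73), an inhibitor of matrix metalloproteinases. Timp1 averaged only 0.146 FPKM in NDWT and 0.0438 in NDKO, so it was tested through CDAHFD libraries and the pseudocount weighs on its fold change. These response genes overlap with the myofibroblast markers above.

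Among 20 tested genes of latent TGF-beta activation and processing 14 were higher in each genotype. Plat, which encodes tissue plasminogen activator, rose by 5.16 in wild type mice and 4.69 in mice labelled TSP-1 null, Mmp2, a matrix metalloproteinase, by 4.18 and 4.09, and Fbn1, the fibrillin to which latent binders attach, by 3.00 and 2.80. On control diet Plat averaged 0.125 FPKM in NDWT and 0.186 in NDKO, and Fbn1 0.384 and 0.412. Both thus passed the filter through CDAHFD libraries, and for Plat the pseudocount weighs on the fold change. Fn1 (fibronectin) had a log2FC of -0.24 and 0.08 and was not called. The 4 tested matrix proteins that bind TGF-beta were all higher, with decorin (Dcn) at 42.9 ± 3.09 FPKM in NDWT and 51.7 ± 2.62 in NDKO on control diet, and 203.6 ± 42.0 in HFWT and 150.9 ± 11.5 in HFKO on CDAHFD (log2FC 2.22 and 1.54). Biglycan (Bgn) rose by 2.25 and 1.87, Emilin1 by 2.14 and 2.00 and fibromodulin (Fmod) by 3.15 and 2.54.

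Genes for Smad proteins and for receptor regulators had medians nearer to that of all genes, at 0.53 and 0.50. Of 11 genes for Smad proteins and partners 8 were higher in each genotype, with a median log2FC of 0.88 and 0.95, and of 10 tested co-receptors and receptor regulators 6 were higher in each, with a median of 0.70 and 0.75, where 44.1% and 41.9% of all genes were called higher. Smad2, a receptor-activated Smad, rose by 0.74 and 0.65, and Smad4, the shared partner, had a log2FC of 0.43 and 0.38 and was under the fold change threshold. Bambi, a decoy receptor, rose by 1.76 and 1.46, and Pmepa1, an inhibitor of Smad signaling, by 2.24 and 2.15. Smurf2, a ubiquitin ligase that acts on the receptors, had a log2FC of -0.10 and 0.11 and was not called.

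Of the 53 genes of the wider pathway, 4 were called higher on control diet in libraries labelled TSP-1 null (Thbs1, Itgb3, Tab1 and Ctgf) and 3 lower (Smad7 and Acta2 among them), 7 in all, beside 1.74% of all genes called higher and 3.03% lower. The total was 3 with a pseudocount of 1 and 3 with only the groups compared. Ctgf, a matricellular response gene, was higher (log2FC 1.03, FDR 0.041), so that response genes of the same list moved in both directions. Smad7, the inhibitory Smad, was lower by a log2FC of -0.76 (FDR 0.0264) and Acta2 by -1.13 (FDR 0.0155), while Itgb3, a subunit of a TGF-beta binding integrin, was higher by 0.69 (FDR 0.0121) and Tab1 by 0.58 (FDR 0.011). On CDAHFD 0 of the 53 were called by limma, where 0.496% of all genes were. By the same fit 8 of the 53 had an unadjusted p under 0.05. The share of all genes with such a p was not counted, so these 8 are not shown to be particular to the pathway. The interaction was called in 2 of the 53, Thbs1 among them (-2.67, FDR 0.0023), beside 0.647% of all genes. The diet comparisons share no libraries with each other, while each shares its libraries with the genotype comparisons.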

How the data were processed

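Poly(A) RNA from liver was sequenced on an Illumina HiSeq instrument from 20 mice, 5 per group. The series text gives the right medial lobe and the methods the right lateral lobe. The authors aligned reads with STAR 2.5.2 and counted them with featureCounts of Subread 1.5.1 (versions per the submitters' processing notes). These notes name a human build, but the table's coordinates are those of GRCm38. The deposited values are FPKM for 38924 genes, with no further scaling between libraries by the authors. Multiplied by gene length, they gave back whole fragments (tolerance 0.2), 15641544 to 23276323 per library. The floor of 3 fragments covers counting error only, and without molecular identifiers duplicates are not told apart. Over the 40 within-group pairs no libraries were copies.

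Differences were tested in R 4.3.3 by lmFit, contrasts.fit and eBayes (trend) of limma 3.58.1 on log2(FPKM + 0.1). A gene was kept where 5 or more libraries exceeded an FPKM of 0.5, which left 14524, with all 20 libraries in 1 fit and a mean per group. Fold changes on this scale understate those of low genes. The study's thresholds were used, FDR under 0.05 and absolute log2FC above 0.58. The exact test of Tgfb1 over Gapdh went through all arrangements in Python 3.11.15 with numpy 2.4.6, and the figures used matplotlib 3.10.9. The fit was tested on simulated data. Alternatives were pseudocounts of 0.01 and 1, other filters, quantile normalization or median of ratios scaling, calls on FDR alone, a fit to only the groups compared, other eBayes settings, a replicate block, Actb as reference, each mouse left out and, added after the values were seen, HFWT library 1 and HFKO library 5 left out together. Replicates are separate mice. The members and gene lists were chosen with earlier results of these data known. Named are all 10 members, Thbs1, Gapdh and Actb. Pathway genes are named by role, at most 4 with the lowest FDR among those called on diet, the 2 least changed, and every one called in a genotype comparison or the interaction, except a gene that is not reported here. The 3 genes most correlated with each member and the 2 most abundant markers per list are also eligible. Promoter windows are from RefSeq on GRCm38.p6, found for 8 of 10 members, not Tgfb3 or Tgfbr3.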

Additional observations from a re-analysis of the deposited data

Results flagged for a closer look

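In single groups of 5, 5 values lay farther from the others than Dixon's criterion at the 95% level allows, among 100 groups tested, where chance gives about 1 in 20, or 5. HFWT library 5 held the lowest Tgfb1 of its group, 14.5 FPKM beside 18.2 to 19.4 in the other 4. HFKO library 5 held the highest Thbs1, 4.40 FPKM beside 3.05 to 3.32. NDWT library 5 gave Tgfb2 a share of 3.32% of ligand FPKM beside 1.52 to 1.87%, from 14 fragments. NDKO library 2 had 4.36 FPKM of binders per FPKM of ligand beside 3.07 to 3.44, and 4.31 beside 3.04 to 3.40 with Ltbp2 left out. The diet effect on Thbs1 differed between the genotype labels by the interaction term of limma, at -2.67 (FDR 0.0023). These are given as values.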

How the results depend on the processing

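The 10 genes were called higher on CDAHFD in 8 to 10 under all alternatives in both genotypes, and 0 were called between the genotype labels or for the interaction under any. The other pathway genes called on control diet between the labels, 7 in the analysis given, were 3 with a pseudocount of 1, 12 without a fold change threshold and 3 with only the groups compared, and those of the interaction went from 2 to 1 with a pseudocount of 1. Tgfbr3 in wild type mice reversed under quantile normalization (log2FC -0.0525), in a scaling that moved the median of all genes. Directions between the genotype labels that were not called also reversed. On control diet Tgfbr2 was 0.0035 under median of ratios scaling and 0.0022 under quantile normalization. With 1 mouse left out the log2FC there ran from -0.0027 to 0.152 for Tgfb2 and -0.163 to 0.209 for Tgfb3. On CDAHFD median of ratios scaling and quantile normalization gave 0.0581 and 0.0857 for Tgfb3, 0.0591 and 0.0116 for Tgfbr2 and 0.0526 and 0.1135 for Ltbp1. Without both HFWT library 1 and HFKO library 5 Tgfb1 was -0.0818, Tgfb3 0.0359 and Ltbp1 0.0858. With 1 mouse left out the log2FC on CDAHFD ran from -0.112 to 0.092 for Tgfb1, -0.149 to 0.115 for Tgfb3, -0.141 to 0.0421 for Tgfbr2, -0.0124 to 0.293 for Tgfbr3, -0.237 to 0.129 for Ltbp1 and -0.115 to 0.188 for Ltbp2. The interaction was 0.003 for Tgfbr1 under median of ratios scaling, 0.0594 for Tgfbr3 under quantile normalization and 0.0687 for Tgfbr3 without both libraries, and with 1 mouse left out it ran from -0.25 to 0.122 for Tgfb3, -0.0972 to 0.0178 for Tgfbr1, -0.0701 to 0.113 for Tgfbr2, -0.211 to 0.0945 for Tgfbr3 and -0.0965 to 0.242 for Ltbp4. The cause was not tested. Against Actb, Tgfb1 differed by 0.15 on the diet in mice labelled TSP-1 null, by 0.71 between the labels on control diet (exact p = 0.00794) and by 0.26 on CDAHFD (exact p = 0.0159). Actb itself was lower in libraries labelled TSP-1 null on control diet (log2FC -0.53, FDR 0.0195).

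Replicate numbers name different mice, and deviations of same-numbered libraries correlated at -0.13 to 0.08 over 20 pairs, so that numbers do not pair the samples. With a replicate block the diet difference of Tgfb1 over Gapdh stayed at 2.13 and 1.83, with an exact p of 0.0625, the smallest that 5 pairs can give. Depth limits Tgfb2 most, at 5 to 14 fragments per control library.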
